A study of Homo sapiens with 4 samples.

Results

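Within the genome-wide map of BRPF3, 884 regions of chromosomes 1 to 22 were held by 1 continuous peak in asynchronous cells and 1 in hydroxyurea (HU) cells, but by 2 or more peaks in mimosine cells. They were chosen by merging peaks of the 3 deposited lists that overlapped by at least 1 bp, and by keeping merged regions under 8000 bp with exactly 1 asynchronous, exactly 1 HU and at least 2 mimosine peaks. The merging gave 13623 regions in all, of which 9197 were under 8000 bp with 1 asynchronous, 1 HU and 1 or more mimosine peaks. These 9197 are called eligible here, and the 8313 with a single mimosine peak are called unsplit. The split regions made up 9.61% of the eligible ones (95% interval 9.02 to 10.2%). With mimosine peaks under 100 bp apart joined, a setting chosen after seeing the data, 443 regions (4.82%) were split, and with peaks of score 100 or more alone, 291 (3.67%). Peak positions chose the members, so widths, scores and gaps are given below as descriptions, without tests.

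The data came from chromatin immunoprecipitation and sequencing in RKO, an established human colon carcinoma line. A rabbit antibody against BRPF3 was used on untreated cells, on cells given 0.5 mM mimosine for 22 h, and on cells given the same mimosine block, released for 3 h and then exposed to 3 mM HU for 1 h 30 min. Rabbit IgG from the last condition was the control for all 3 peak lists, so for the untreated and mimosine lists it came from differently treated cells. Each condition had 1 library, with no replicate, and sequencing depth is unknown.

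BRPF3 is a scaffold protein with histone-reading domains that holds MYST-family acetyltransferases such as HBO1 on chromatin, where they acetylate histone H3. HBO1 also takes part in preparing replication origins, which is why its partners are of interest around the start of DNA synthesis. Mimosine, a plant amino acid that binds iron, arrests cells near that point, and HU depletes nucleotides and stalls replication forks. A peak is a stretch where reads exceed the control by the peak caller's criterion, so a gap between 2 peaks says only that the criterion was not met there. It does not say that BRPF3 was absent.

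Most splits were a single narrow break. Of the 884 regions, 822 held 2 mimosine peaks (93.0%), 60 held 3 and 2 held 5. The total gap between mimosine peaks had a median of 101.5 bp (95% interval 91 to 114 bp, interquartile range 36 to 217 bp), and it ran from 1 to 2445 bp. In 436 regions (49.3%, 46.0 to 52.7%) the gaps added up to less than 100 bp, and in 640 (72.4%) to less than 200 bp. Gaps of 500 bp or more were found in 76 regions (8.60%, 6.83 to 10.6%), among them 18 with 1000 bp or more. A break of a few bases and one of over 1 kb thus met the rule alike.

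The smallest gap, 1 bp, was shared by 10 regions, of which the 5 widest are named here. The first is chr2:153571201-153577000 (hg19, as are all positions here). The mimosine peaks there were 2254 and 1555 bp wide, with scores of 510.5 and 132.6, and 1 bp lay between them. The score is the authors' own value per peak, read from the form of the lists as 10 times the negative base-10 logarithm of the peak caller's p-value. It is used here only to rank or describe peaks within a list. Asynchronous cells had a peak of 4746 bp and HU cells one of 5800 bp at this place. At chr14:81683680-81689100, also with a gap of 1 bp, the mimosine scores were 1981 and 137.6, and both other lists recorded 3100. The other named regions with a gap of 1 bp were chr11:63578658-63584345, chr12:65562338-65567545 and chr4:77993415-77998328. Over all 10, the stronger mimosine peak scored from 176.0 to 1981 and the weaker from 64.9 to 156.

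The widest breaks looked different. At chr17:8088206-8093947, asynchronous cells had 1 peak of 5498 bp with a score of 635.9, and HU cells 1 peak of 5657 bp with a score of 740.2. The mimosine list held 2 peaks of 1051 and 1250 bp there, with scores of 109.8 and 156.6, separated by 2336 bp that included the centre of the asynchronous peak. At chr6:32142517-32147929, the gap was 2017 bp, between mimosine peaks of 844 and 943 bp with scores of 136.9 and 56.1. At chr4:177821550-177826045, the mimosine peaks scored 52.2 and 63.5 and lay 2270 bp apart, both close to the lowest score in that list, 50.01. In the region with the largest total gap, chr5:173314309-173320493, 1957 bp were held by the asynchronous peak and 6185 bp by that of HU cells. Only 196 of its 2445 bp of gap lay inside the asynchronous peak, so most of that break was seen against the HU peak alone. The fifth of these regions, chr4:54925024-54932012, had gaps of 1829 bp around 3 mimosine peaks, the strongest with a score of 1700.

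**Figure D1:**
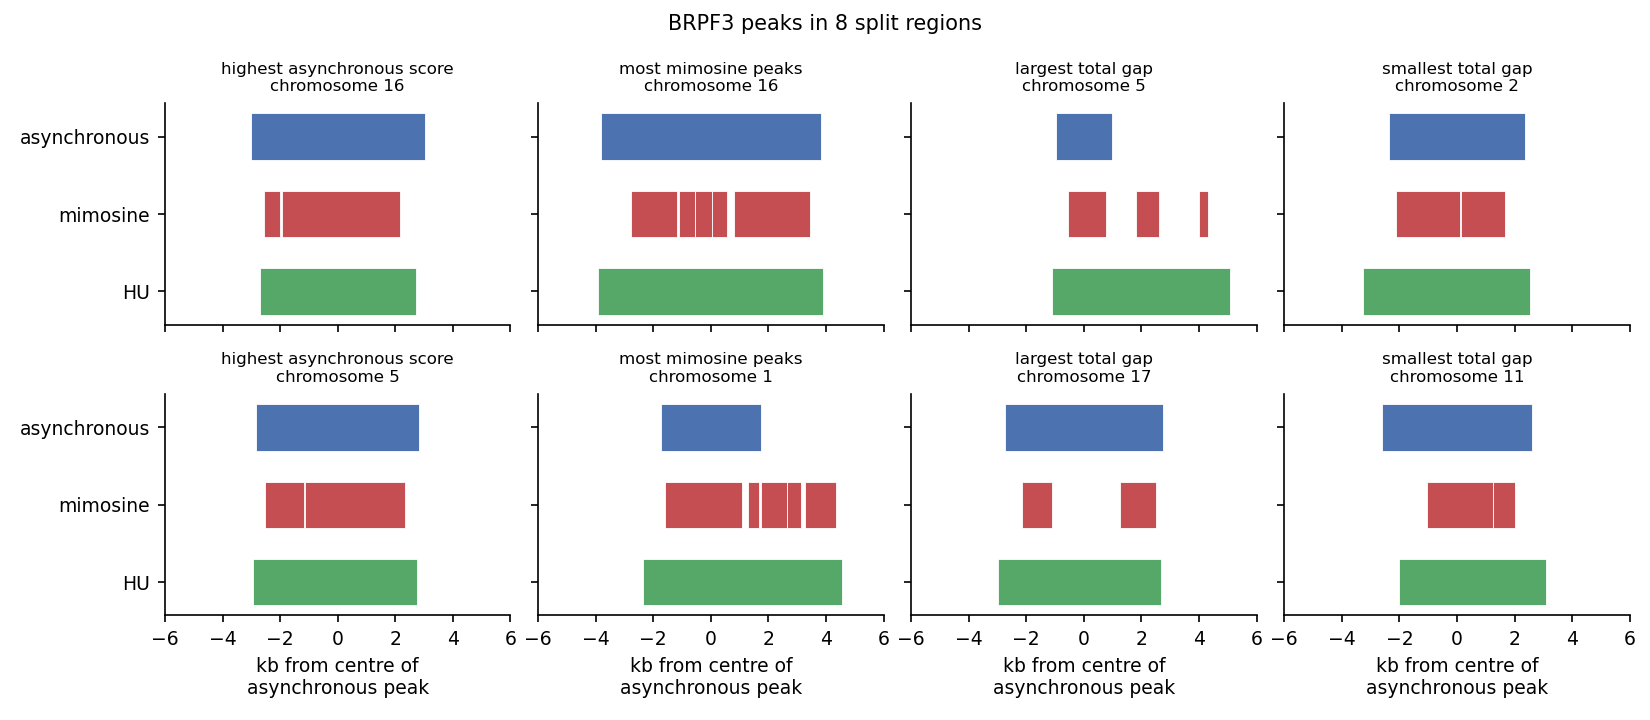
Peaks of the 3 lists in 8 split regions, plotted as kb from the centre of the asynchronous peak (x axis), with 1 bar per peak and 1 row per list; each column shows the first 2 regions under 1 heading. Each bar has a white outline, so the narrowest gaps, such as those of 1 bp in the right-hand column, appear wider than to scale, whereas the total gaps of 2445 and 2336 bp in the third column are open stretches bridged by a single HU peak.

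Regions with the most breaks were wide. Those with 3 mimosine peaks had a median asynchronous width of 4666 bp, against 3782 bp for those with 2. More peaks need more room, so this difference is partly by construction. The region chr16:71316206-71324020 held 5 mimosine peaks of 1608, 547, 583, 505 and 2632 bp. Their scores were 205.8, 68.5, 95.8, 51.0 and 101.6, beside 1 asynchronous peak of 7621 bp (score 864.7) and 1 HU peak of 7815 bp (score 342.0). The other region with 5 mimosine peaks, chr1:993440-1000343, had a top mimosine score of 504.3 (rank percentile 66.5 in its list) and an asynchronous score of 296.5 (32.8). There 2 of the mimosine peaks lay wholly beyond the asynchronous peak but inside the HU peak of 6904 bp. The regions with 3 peaks named here were picked as the widest of that kind outside chromosome 8. They were chr4:57841304-57848851, chr11:122023539-122031017 and chr19:17184184-17191537, with total gaps of 33, 1080 and 879 bp. The last was rather evenly divided, with mimosine scores of 452.6, 598.9 and 645.3.

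As a rule, the lowest-scoring mimosine peak of a region was weak, while the highest-scoring one varied widely. Their order follows from the choice of highest and lowest. The highest-scoring mimosine peak of a region had a median score of 391 (95% interval 349 to 428), and the lowest-scoring one 74.2 (71.5 to 77.2). Within the full mimosine list these medians correspond to rank percentiles of 59.5 (interquartile range 39.7 to 80.1) and 12.7 (5.28 to 23.6). In 627 regions (70.9%) the weakest peak scored under 100, and in 247 (27.9%) under 60. All mimosine peaks scored 100 or more in 257 regions (29.1%), and 500 or more in 11. Conversely, 79 regions (8.94%) had no mimosine peak reaching 100. The strongest peak was also the widest in 795 regions (89.9%, 87.8 to 91.8%). The widest mimosine peak had a median of 1936.5 bp and the narrowest 759 bp, and in regions with 2 peaks the narrower had a median of 0.45 of the width of the wider.

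**Figure D2:**
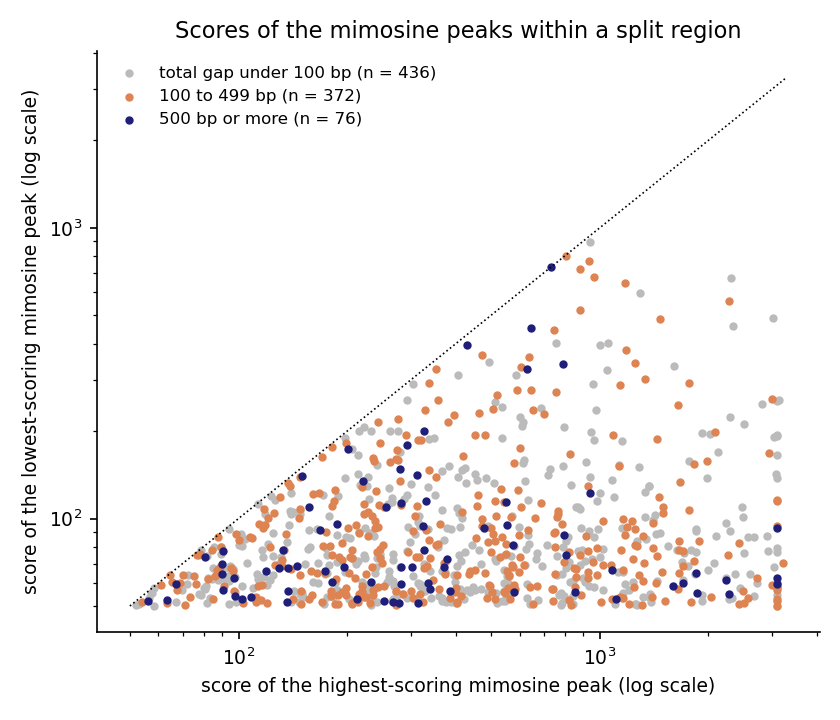
Score of the highest-scoring (x axis) and of the lowest-scoring (y axis) mimosine peak in each of the 884 split regions, both on log scales, with 1 point per region coloured by total gap and a dotted line where the scores are equal. By construction no point can lie above the line. Most points lie far below it, with a median lowest score of 74.2 against a median highest score of 391.

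A pair of regions with near-equal peaks, chosen after their values were seen, shows the other end of this range. At chr18:72918422-72924972 the mimosine peaks scored 734 and 733, at widths of 3033 and 1751 bp and with 542 bp between them. At chr21:47740603-47746974 the scores were 801 and 808, at 2349 and 1392 bp, with 492 bp between them. Both regions recorded 3100 in asynchronous cells. In HU cells they scored 3100 and 2915.

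Asynchronous peaks of the highest scores could be split too. Many peaks share the value of exactly 3100, and scores from there on are treated as a single top class whose order is not resolved. Such scores were carried by the asynchronous peak of 97 split regions (10.97%, 8.99 to 13.2%), beside 7.26% of all eligible regions. In 86 of the 97 the score was exactly 3100 and in 11 it was larger. The 5 with the largest deposited values, which may not outrank those at 3100, were chr16:4894954-4900987, chr5:6711491-6717261, chr2:75060056-75066962, chr3:185824009-185828566 and chr17:18085139-18092164. At the first, the mimosine list held a peak of 4089 bp with a score of 2319 and, 53 bp away, one of 563 bp with a score of 53.3. At chr5:6711491-6717261 the mimosine scores were 3148 and 256, and at chr17:18085139-18092164 they were 2952 and 167.5. The lower-scoring peaks of these 3 regions stood at rank percentiles of 2.35, 47.6 and 35.2 in the mimosine list, so they ranged from its weakest to near its middle. At chr2:75060056-75066962 the strongest mimosine peak was 3567 bp wide with a score of 3100. Its side peaks scored 66.1 and 51.9, and the second lay wholly outside the asynchronous peak of 4203 bp.

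The gap could lie at many places along the asynchronous peak, but its centre was more often near the middle than near the ends. A mimosine peak lies on each side of the gap, so places near the ends are disfavoured by construction. In the 822 regions with 2 mimosine peaks, the gap centre lay at a median of 49.9% of the way along the asynchronous peak, counted from its lower coordinate (interquartile range 32.9 to 65.3%). The stronger mimosine peak was the one at the lower coordinate in 386 of the 822 (47.0%, 43.5 to 50.4%). Genome coordinates give no orientation to genes, so this says nothing about the direction of transcription. The centre of the asynchronous peak lay in the gap in 67 of the 822 (8.15%, 6.37 to 10.2%) and inside the higher-scoring mimosine peak in 660 (80.3%, 77.4 to 83.0%). The HU centre lay in the gap in 74. With gaps of 500 bp or more, the asynchronous centre lay in the gap in 28 of 60 regions (46.7%, 33.7 to 60.004%), and with gaps under 100 bp in 6 of 424 (1.42%). Wider gaps hold more positions by construction. Over all 884 regions the asynchronous centre was inside a mimosine peak in 811 (91.7%), beside 96.9% of all eligible regions.

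The breaks were bridged by HU cells in every member. The HU peak spanned all gaps of the region in 884 of 884 regions, and the asynchronous peak in 850 (96.2%, 94.7 to 97.3%). The rule requires that the peaks of the other lists connect the mimosine peaks, but not that each list does so. In 13 regions the gaps lay wholly outside the asynchronous peak. The HU peak was the wider of the 2 in 675 regions (76.4%, 73.4 to 79.1%), beside 75.3% of all eligible regions, and the median ratio of HU to asynchronous width was 1.09 in split and in unsplit regions. Among asynchronous peaks under 2000 bp, the HU peak was wider in 21 of 21 split regions and in 1054 of 1297 unsplit ones (81.3%). At 2000 to under 3000 bp it was wider in 150 of 174 split regions (86.2%, 80.2 to 91.0%) and in 2467 of 3165 unsplit ones (77.9%, 76.5 to 79.4%). At 5000 to under 6000 bp the order was the opposite, with 69 of 113 (61.1%) and 273 of 416 (65.6%), and at 6000 bp and over the shares were 44 of 72 (61.1%) and 114 of 214 (53.3%). The intervals overlapped in both of these classes. Where a gap lies beyond the asynchronous peak, the rule keeps the region only if the HU peak reaches over it. A wider HU peak in split regions is thus partly favoured by the rule.

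Little of the asynchronous peak was lost to the gaps themselves. Mimosine peaks covered a median of 75.6% of the asynchronous peak (95% interval 74.7 to 76.9%) in split regions and 69.2% (68.8 to 69.7%) in unsplit ones. At equal width the intervals did not overlap below 3000 bp. Under 2000 bp the medians were 75.2% (68.2 to 85.1%, 21 regions) in split and 62.8% (61.9 to 64.1%) in unsplit regions. At 2000 to under 3000 bp they were 73.3% (70.3 to 76.9%) and 67.2% (66.5 to 67.8%). From 3000 bp on the difference was smaller and the intervals overlapped. The medians were 73.8% (71.7 to 76.3%) and 71.9% (71.1 to 72.8%) at 3000 to under 4000 bp. At 5000 to under 6000 bp they were 76.2% (74.2 to 79.0%) and 74.96% (72.9 to 76.4%). Of the asynchronous length left uncovered, a median of 952.5 bp, the gaps made up a median of 10.96% (9.86 to 12.2%), and the remainder lay at the outer edges. The uncovered edges had medians of 333 bp on the lower-coordinate and 334.5 bp on the higher-coordinate side. Gaps exceeded the edges in 79 regions (8.94%). Coverage was under 50% in 47 split regions (5.32%, 3.93 to 7.01%), beside 13.6% of all eligible regions. In the 76 regions with 500 bp of gap or more, coverage had a median of 64.8%, and the gaps made up 48.4% of the uncovered length.

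At equal width the uncovered edges were also shorter in split regions. For asynchronous peaks of 3000 to under 4000 bp, mimosine peaks left a median of 749 bp of edge uncovered in 305 split regions (681 to 817 bp) and 965 bp in 2247 unsplit ones (937 to 992 bp). At 4000 to under 5000 bp the values were 863 bp and 1133.5 bp. The widest mimosine peak of a split region, in contrast, had a median of 1762 bp at asynchronous widths of 3000 to under 4000 bp, against 2460 bp for the only peak of unsplit regions. A second peak extends the outer span by construction, so neither difference is independent of the rule.

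In the 5 regions of lowest coverage named here, more of the asynchronous peak was uncovered at its edges than in the gap. At chr1:162845629-162849817, mimosine peaks of 471 and 581 bp covered 25.8% of an asynchronous peak of 4078 bp, and the gap took 223 bp against 2036 and 767 bp at the edges. At chr5:121460333-121467863, the asynchronous peak of 7531 bp scored 2126 (rank percentile 87.3 in its list) and the HU peak of 6092 bp 1037 (69.9). The mimosine peaks scored 222.0 and 75.1 (43.2 and 13.1), covered 28.2% of the asynchronous peak and had 36 bp between them. The regions chr1:67106914-67113767, chr1:78469395-78474629 and chr5:95384368-95390363 were covered over 31.6, 27.0 and 32.8%.

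Wide peaks were split more often. The share of eligible regions split in mimosine cells rose from 1.59% (21 of 1318) for asynchronous peaks under 2000 bp to 5.21% at 2000 to under 3000 bp, 11.95% at 3000 to under 4000 bp, 17.0% at 4000 to under 5000 bp, 21.4% at 5000 to under 6000 bp and 25.2% (72 of 286, 95% interval 20.2 to 30.6%) at 6000 bp and over. Classes of HU width gave 0.699% under 2000 bp and 23.3% at 6000 bp and over. Median widths were accordingly larger in split than in unsplit regions, at 3812 against 2898 bp in asynchronous and 4308 against 3207 bp in HU cells. A split needs room for at least 2 called mimosine peaks, of which the narrowest in any member was 303 bp wide, and a gap. Part of the rise with width therefore follows from the rule. Across scores the share rose as well, from 5.27% at asynchronous scores of 100 to under 500 to 14.5% at 3100 and over.

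At a given width of 3000 bp or more, by contrast, the share was lower at the highest scores. For asynchronous peaks of 3000 to under 4000 bp, 127 of 903 regions (14.1%, 11.9 to 16.5%) were split at scores of 500 to under 1000, 127 of 1272 (9.98%, 8.39 to 11.8%) at 1000 to under 3100, and 2 of 71 (2.82%, 0.343 to 9.81%) at 3100 and over. At 4000 to under 5000 bp the shares in these score classes were 24.4%, 16.7% and 11.2%, and at 5000 to under 6000 bp 28.3%, 24.3% and 15.5%, with overlapping intervals between neighbouring classes. Scores of 100 to under 500 broke the order at 4000 to under 5000 bp, with 6 of 40 split. Median asynchronous scores at 4000 to under 5000 bp were 1471 in split (1331 to 1661) and 1801 in unsplit regions (1710 to 1886). At 2000 to under 3000 bp they were 551 and 567, with overlapping intervals, and under 2000 bp 345 (256 to 416, 21 regions) and 278 (264 to 290), in the opposite order. The rank percentile of the strongest mimosine peak minus that of the asynchronous peak had a median of -10.02 points in split and -4.42 in unsplit regions at 3000 to under 4000 bp. At 4000 to under 5000 bp the medians were -7.66 and -2.26. They were -10.9 and -7.39 at 2000 to under 3000 bp, with overlapping intervals. Under 2000 bp the order was the opposite, at -6.97 (21 regions) and -8.22, also with overlapping intervals. In a split region the value ranks only 1 of its mimosine peaks.

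**Figure D3:**
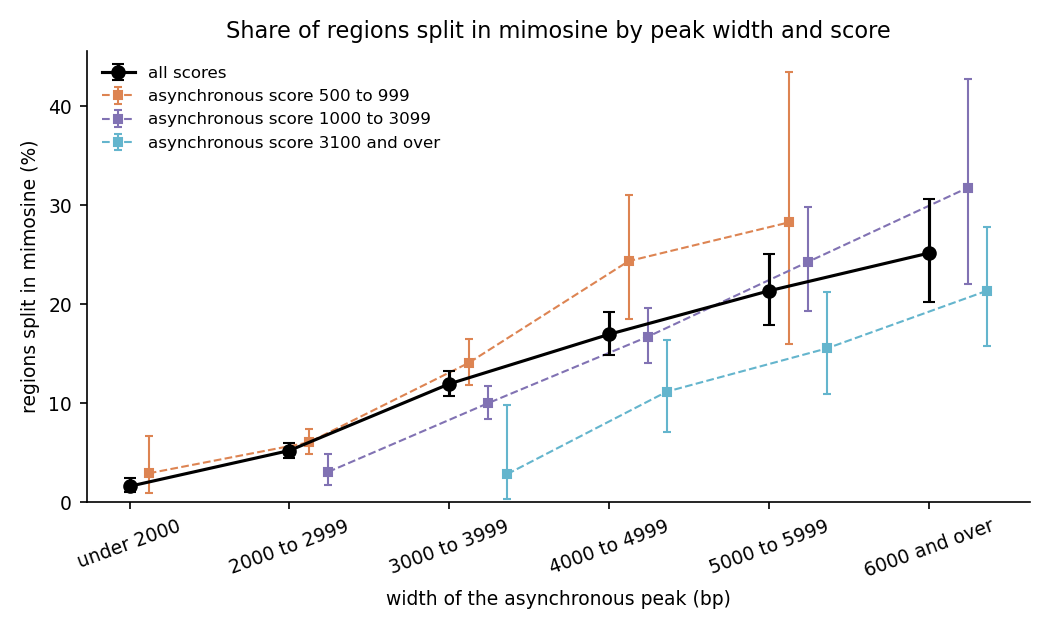
Percentage of eligible regions that were split in mimosine cells (y axis) by width class of the asynchronous peak in bp (x axis), for all scores and for 3 classes of asynchronous score with at least 40 regions; bars are exact 95% intervals and cover counting error only. The share rises with width in every series, from 1.59 to 25.2% for all scores, and from 3000 bp on it is lowest for scores of 3100 and over.

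Regions split in another list only were fewer but had gaps of similar size. They and the 884 regions split in mimosine cells have the same reference, the 8313 unsplit regions with exactly 1 peak of each list. Under the same width limit, 104 regions were held by 2 or more asynchronous peaks and 1 peak of each other list, and 44 by 2 or more HU peaks and 1 peak of each other list. Their median total gaps were 80.5 bp (53 to 131 bp) and 102.5 bp (86 to 191 bp), and gaps under 100 bp made up 51.9% and 43.2%. The weakest peak scored a median of 64.5 in the asynchronous and 68.4 in the HU case. Lists differed in how often they covered the gaps. The HU peak spanned every gap in all 104 regions split in asynchronous cells, and the asynchronous peak did so in all 44 split in HU cells. Mimosine peaks were narrower in general, with a median of 1855 bp in the full list, against 2644 bp for asynchronous and 2898 bp for HU peaks. The single mimosine peak spanned the whole gap in 11 of the 104 regions split in asynchronous cells and in 1 of the 44 split in HU cells. It covered a median of 0% of the gap in both sets, whereas the asynchronous peak spanned every gap in 850 of the 884 regions split in mimosine cells. Where the mimosine peak does not span a gap, merging keeps the region only if the other unsplit list bridges what remains. The bridging in all 104 and all 44 regions therefore follows largely from the rule. Splits in the asynchronous or HU list could mostly be bridged by 1 list alone, so the numbers of split regions are not on an equal footing.

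**Figure D4:**
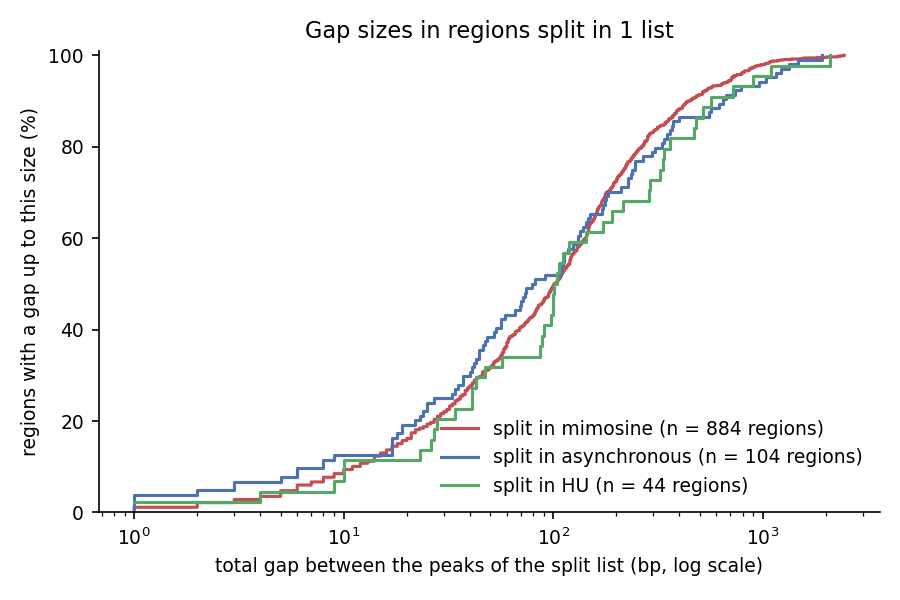
Cumulative percentage of regions (y axis) with a total gap up to the size on the x axis (bp, log scale), for the 884 regions split in mimosine cells only and for the 104 and 44 regions split in asynchronous or HU cells only. The curves run close together, with medians of 101.5, 80.5 and 102.5 bp.

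Regions split in asynchronous cells were split in mimosine cells at a higher share than others of their width. Of 154 regions under 8000 bp with 2 or more asynchronous peaks, 1 HU peak and a mimosine peak, 50 (32.5%, 25.2 to 40.5%) were split in mimosine cells as well. Regions of the same merged width with 1 asynchronous peak were split in 16.4%. For regions with 2 or more HU peaks and 1 asynchronous peak, the share was 10 of 54 (18.5%, 9.25 to 31.4%), against 16.9% at the same width. In the 47 regions with exactly 2 asynchronous, 2 mimosine and 1 HU peak, the gaps of the 2 lists overlapped in 28. The mimosine gap was the larger in 36 of the 47, and in 26 of the 28 that overlapped.

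Split regions were unevenly spread over the chromosomes. Each chromosome's share was set beside the share that regions of the same asynchronous width and score classes had over all 22. Chromosome 20 had the lowest share, with 9 of 258 eligible regions split (3.49%, 1.61 to 6.52%), where its widths and scores would give 11.5%. Chromosome 8 followed with 16 of 324 (4.94%, 2.85 to 7.90%) where 12.8% would be given, then chromosome 7 with 6.05% against 9.90%, and chromosome 9 with 7.69% against 12.1%. The highest shares were on chromosome 21, with 15 of 92 (16.3%, 9.42 to 25.5%) against 7.61%, chromosome 4 with 53 of 336 (15.8%, 12.0 to 20.1%) against 10.8%, and chromosome 2 with 91 of 631 (14.4%, 11.8 to 17.4%) against 9.45%. For these 7 chromosomes the interval lay outside the value given by width and score. It included that value for the other 15. These intervals treat regions as independent, which neighbouring regions need not be.

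On chromosomes 7, 8 and 9, picked after the values were seen, the share was lower in the part of higher coordinates. When each chromosome was divided at the middle of its eligible regions, the upper part of chromosome 9, from position 108005838, had 5 of 202 regions split (2.48%, 0.808 to 5.68%). The lower part had 26 of 201 (12.9%, 8.63 to 18.4%). The upper part of chromosome 8 had 4 of 162 (2.47%) and that of chromosome 7 had 9 of 240 (3.75%), against 7.41% and 8.37% in their lower parts. In the upper parts width and score would give 28.5 split regions on chromosome 7, 24.9 on chromosome 8 and 27.3 on chromosome 9. In the lower parts they would give 18.9, 16.6 and 21.7, where 20, 12 and 26 were found, so the lower part of chromosome 8 was also below the value given by width and score. Chromosome 20 was low in both, with 5 and 4 of 129. Asynchronous peaks were wider in these upper parts, with medians of 3784.5 bp on chromosome 9, 3936 bp on chromosome 8 and 3322 bp on chromosome 7, against 3230, 2971 and 2747 bp in the lower parts. Unsplit mimosine peaks also kept more of the asynchronous width there, at median ratios of 0.73, 0.73 and 0.72 against 0.68, 0.69 and 0.69. Differences in the number of chromosome copies or reads were not measured here, and their part in this pattern was not tested. The ratios of measured to given splits in the 2 parts had a Spearman's rho of 0.23 (Pearson's r 0.31) over the 22 chromosomes. Both parts were above the given value on 7 chromosomes and both below it on 4. Chromosome 15 also had the lower share in its upper part (5.66% against 13.9%). On chromosomes 17, 18 and 21 the upper part was higher, at 11.7, 19.1 and 21.7% against 6.71, 7.46 and 10.9%. Across the 22 chromosomes, the ratio of measured splits to those given by width and score was set beside 2 medians of unsplit peaks. With the median width ratio it had a Spearman's rho of -0.57 (Pearson's r -0.44). With the median mimosine minus asynchronous rank percentile it had a rho of 0.008 (r 0.004). Unsplit regions are those left once the split ones are taken out, so these medians are not independent of the number of splits. All chromosomes share the same 3 libraries, so these are descriptions only.

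**Figure D5:**
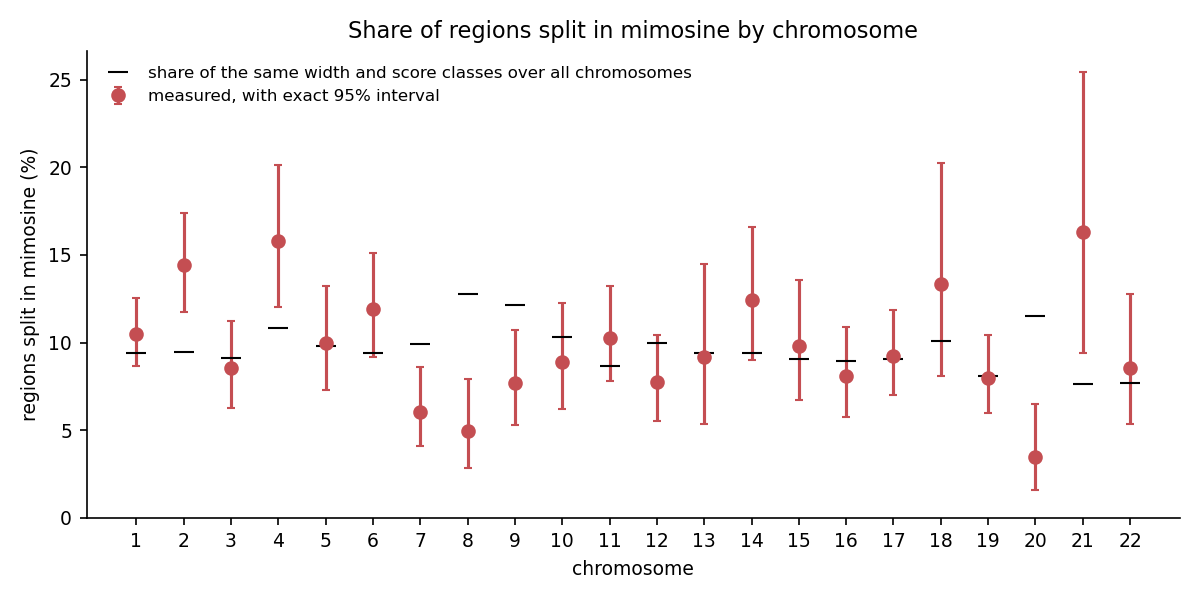
Percentage of eligible regions that were split in mimosine cells (y axis) on each of chromosomes 1 to 22 (x axis); points are measured shares with exact 95% intervals, and black dashes the share that regions of the same width and score classes had over all chromosomes. Chromosomes 7, 8, 9 and 20 lie below their dashes and chromosomes 2, 4 and 21 above, with intervals that do not reach them.

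Spacing along the genome was similar for split and unsplit regions. The nearest other BRPF3 region lay a median of 32.8 kb away from split regions (29.9 to 38.6 kb) and 29.8 kb from unsplit ones (28.6 to 30.8 kb). Neighbours within 5 kb were found for 139 of 884 (15.7%) and 1309 of 8313 (15.7%). At asynchronous widths of 6000 bp and over, the medians were 31.4 kb (22.2 to 44.3 kb) for 72 split and 19.9 kb (15.8 to 27.0 kb) for 214 unsplit regions.

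The width limit cut through a continuous range. A further 110 regions of 8000 bp or more met the rest of the rule, 17 of them within 500 bp above the limit, as were 17 members within 500 bp below it. The widest members were chr2:10583415-10591358 (7944 bp), chr1:150581497-150589426 (7930 bp) and chr17:74728057-74735980 (7924 bp), with total gaps of 16, 103 and 105 bp. Just outside lay chr12:123005992-123014035 (8044 bp), chr16:1658519-1666563 (8045 bp) and chr5:36873196-36881391 (8196 bp), with gaps of 613, 76 and 49 bp. At the narrow end were chr22:39540809-39542371 (1563 bp), chr19:8941594-8943529 (1936 bp) and chr13:40229239-40231207 (1969 bp). Their weaker mimosine peaks scored 58.7, 53.0 and 53.3, near the lowest score of the list.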

How the data were processed

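For each BRPF3 library the authors deposited 1 list of peaks, named as called against the IgG library. The submitters' processing notes name Bowtie 0.12.8, SAMtools, MACS 1.4.0 and bedtools with the builds hg18 and hg19, and give no roles or settings. On 6 chromosomes checked, peaks of all 3 lists lay past a chromosome end of hg18 and of GRCh38, and none past one of hg19, so hg19 was used, counted from 1. The deposited score was read as 10 times the negative base-10 logarithm of the p-value from the form of the lists. Titles and the antibody field name BRPF3; a description field naming relatives of it was not followed. Depth is unknown.

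Peaks of the 3 lists (13160 asynchronous, 11532 mimosine, 13431 HU) were merged on chromosomes 1 to 22 where they shared 1 bp or more. Intervals for shares are exact (Clopper-Pearson) at 95%, and those for medians come from binomial order statistics. They cover counting error over regions of 1 library per condition. No test was made. Figures were drawn with matplotlib 3.10.9, and values computed with SciPy 1.17.1, NumPy 2.4.6 and pandas 2.3.3 under Python 3.11.15. For a check of the computation, all 3 lists were made from the asynchronous peaks, and 200 of the mimosine copies were cut at their middle. Of these 200 planted splits, 198 were recovered, all with the exact gap and with 0 false splits. This checks the merging and gap measurement only, since the simulated lists hold no noise from reads or peak calling.

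Members, classes and comparisons were chosen with earlier results of these data known. Regions were named by rule, without chromosome 8: the 5 of highest asynchronous score, most mimosine peaks, largest gap, smallest gap and lowest coverage, then the 3 members just under and the 3 regions just over the width limit, and the 3 narrowest members. Ties in asynchronous score and in the number of mimosine peaks went to the wider region. A chromosome's share given by width and score weights the genome-wide share of each width and score class by its number of regions in that class. No genome or gene annotation of hg19 was used, so genes and sequences of the regions are not reported.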

Additional observations from a re-analysis of the deposited data

Results flagged for a closer look

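Chromosome X was outside the rule, which covers chromosomes 1 to 22, and it held regions of the same kind. Of 227 chromosome X regions that met the other conditions, 36 were split in mimosine cells (15.9%, exact 95% interval 11.4 to 21.3%). Their total gaps had a median of 174 bp and ran from 13 to 1707 bp.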

How the results depend on the processing

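No paired analysis was possible because each condition had 1 library and no test was made. No replicate could be left out. Joining mimosine peaks under 100 or 200 bp apart, and dividing chromosomes in 2, were chosen after seeing the data. Of 83 values recomputed, 47 stayed within 1.5 times (number of regions) or the 95% interval of the main value, and 36 moved. With mimosine peaks under 100, 200 or 500 bp apart joined, the number of split regions went from 884 to 443, 241 and 70, their share of eligible regions to 4.82%, 2.62% and 0.762%, the median total gap to 213, 348 and 753 bp, the covered share of the asynchronous peak to 73.7%, 71.0% and 63.9%, the share of uncovered length in gaps to 24.8%, 34.8% and 48.4%, and the share with the asynchronous centre in the gap to 14.9%, 23.4% and 42.0%. By construction these settings keep the wider gaps. The strongest peak was also the widest in 84.3% at 500 bp, the median asynchronous rank percentile became 66.2 at 200 bp and 63.5 at 500 bp, and the median ratio of HU to asynchronous width became 1.07 at 500 bp. With scores of 100 or more in all lists, or in the mimosine list alone, 291 and 285 regions were split (3.67% and 3.65%), the asynchronous centre lay in the gap in 10.9% and 10.8%, the strongest peak was the widest in 84.2% under both, and the median rank percentile was 76.7 under both; weak side peaks are removed by construction. Under a limit of 6000 bp and with no limit, the split share was 8.73% and 10.5% and the median rank percentile 66.1 and 73.3. Merging peaks under 1 kb apart, adding chromosome X, and an overlap of 200 bp or more moved none of the values they were run for.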
